A study of Mus musculus with 45 samples.

Results

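The lungs and spleens of healthy control mice were set against each other, gene by gene, to describe what separated these organs in animals without a tumor. Genes with more than 10 counts summed over the 3 control lungs and 3 control spleens were taken, after lines with the same symbol were added together, which gave 20087 genes of the 55367 symbols in the table. The study asked how breast tumors of differing metastatic potential change distant tissues, and its 24 lung and spleen libraries came from female Balb/c mice. Control mice carried a subcutaneous scaffold, as did every mouse of the study, and received no cancer cells, and their tissues were taken at day 14. The other 18 libraries came from mice 14 days after an orthotopic inoculation of 67NR, 4T07 or 4T1 mammary cancer cells. Age was not in the labels, and no genotype or drug treatment separated the groups. RNA was counted from the 3′ end of polyadenylated transcripts, so a count stands for a transcript end rather than for length.

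The lung exchanges gas across a thin sheet of alveolar type 1 cells laid against capillaries, and alveolar type 2 cells keep that surface open by secreting surfactant, a film of lipid and proteins. The conducting airways are lined by secretory club cells and ciliated cells that clear inhaled particles. The spleen filters blood: macrophages of its red pulp remove aged red cells and recycle their iron, its white pulp gathers B and T cells around arterioles, and in the mouse its red pulp remains a site of red cell and platelet production.

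The 3 control lungs held between 5545315 and 6178621 counts and the 3 control spleens between 4334104 and 5149589. A count of 3, the floor used for bounds, was worth 0.486 to 0.541 CPM (counts in every 1000000 of a library) in a lung and 0.583 to 0.692 CPM in a spleen, and this floor covers counting error alone. Haemoglobin genes took 1.77% to 2.62% of lung counts and 8.46% to 9.83% of spleen counts. Immunoglobulin genes took 0.0292% to 0.0446% of lung counts and 0.847% to 1.17% of spleen counts. Across all 55367 symbols, those without counts included, pairs of lungs correlated at 0.992 to 0.994 on the log2(CPM + 1) scale. Pairs of spleens correlated at 0.983 to 0.989 and lung with spleen at 0.912 to 0.923. Spleen library 8 stood apart in pancreatic genes and lung library 5 in liver genes, and results that rest on them are given with and without them.

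A gene was called when edgeR's quasi-likelihood test gave a Benjamini-Hochberg adjusted p under 0.10 together with a fold change over 2. By this rule 4328 genes (21.5% of those tested) were higher in lung and 4083 (20.3%) were higher in spleen, together 8411 (41.9%). The balance depended on the scaling: with upper-quartile factors 3937 were higher in lung and 4687 in spleen. The median log2 fold change of lung over spleen across all genes tested was -0.03. In 12014 genes (59.8%) every lung lay on 1 side of every spleen, and 7984 of these were also called. Changes over 16-fold were found for 1020 genes higher in lung and 477 higher in spleen. No spleen held more than 3 counts for 1289 of the genes called in lung, and no lung did for 1036 of those called in spleen. Among 3792 genes with a mean of at least 50 CPM, 746 were higher in lung and 551 in spleen. Whole tissues were sequenced, so fewer cells of a type and less RNA per cell cannot be told apart.

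**Figure D1:**
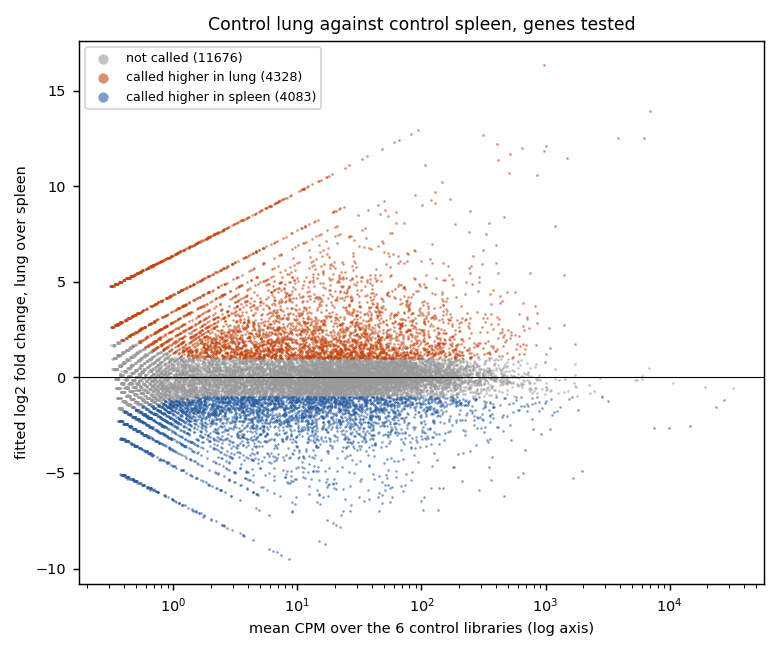
Fitted log2 fold change of lung over spleen against the mean CPM of the 6 control libraries on a log axis, with each point 1 of the 20087 genes tested. The 4328 genes called higher in lung reach further from 0 than the 4083 called higher in spleen.

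Promoter sequences of 4 genes that separated the organs are shown because their activators are well described, to give the bases in front of genes whose counts follow. Sftpb and Sftpa1 encode surfactant proteins, Hbb-bs an adult beta globin and Rhd a red cell membrane protein of the Rh complex. Each is the 250 bases before the annotated start from RefSeq on GRCm38.p6, written 5′ to 3′ on the strand of the gene. Sftpb lies at chr6:72304360-72304609, plus strand; Sftpa1 at chr14:41131538-41131787, plus strand; Hbb-bs at chr7:103827929-103828178, minus strand; and Rhd at chr4:134864286-134864535, plus strand. Capitals mark matches on either strand. In the surfactant genes they are CTCAAG, the core bound by the lung factor NKX2-1, and TGTTTNC, the form bound by FOXA forkhead factors. In the red cell genes they are AGATAA, bound by the zinc finger factor that Gata1 encodes, and CCNCNCCC, bound by the erythroid factor that Klf1 encodes.
Sftpb: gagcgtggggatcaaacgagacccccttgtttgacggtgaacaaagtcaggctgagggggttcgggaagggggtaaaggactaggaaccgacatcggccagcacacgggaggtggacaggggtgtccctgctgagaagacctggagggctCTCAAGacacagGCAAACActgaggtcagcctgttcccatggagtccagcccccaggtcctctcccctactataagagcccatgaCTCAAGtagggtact
Sftpa1: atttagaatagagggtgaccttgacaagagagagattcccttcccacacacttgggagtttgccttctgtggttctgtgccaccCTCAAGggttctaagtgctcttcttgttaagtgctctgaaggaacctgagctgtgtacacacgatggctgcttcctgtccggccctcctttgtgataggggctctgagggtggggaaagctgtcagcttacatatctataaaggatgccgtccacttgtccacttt
Hbb-bs: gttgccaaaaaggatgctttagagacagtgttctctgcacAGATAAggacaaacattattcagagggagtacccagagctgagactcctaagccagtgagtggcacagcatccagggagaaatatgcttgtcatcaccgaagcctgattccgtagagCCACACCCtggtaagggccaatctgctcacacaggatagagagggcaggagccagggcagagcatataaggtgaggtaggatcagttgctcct
Rhd: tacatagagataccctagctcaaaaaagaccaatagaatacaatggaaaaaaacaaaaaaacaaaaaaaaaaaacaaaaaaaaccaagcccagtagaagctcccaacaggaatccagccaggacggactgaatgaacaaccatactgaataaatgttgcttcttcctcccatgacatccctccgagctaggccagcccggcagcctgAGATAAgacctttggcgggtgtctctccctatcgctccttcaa
CTCAAG began 100 and 15 bases before the start of Sftpb and 166 before that of Sftpa1, and TGTTTNC matched the opposite strand 88 to 82 bases before the Sftpb start. AGATAA began 210 bases before Hbb-bs and 43 before Rhd, and CCNCNCCC began 93 bases before Hbb-bs. Such letters are common: CTCAAG was in 13.6%, TGTTTNC in 17.9%, AGATAA in 10.3% and CCNCNCCC in 45.6% of the 27025 windows of the same length. The matches shown do not overlap each other. An entry was matched for 38 of 51 lung epithelial markers and 17 of 24 erythroid markers, under 80% of each list, so a motif count over the lists would be void and is not given.

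Genes of the alveolar and airway lining were higher in lung. All 12 airway secretory markers, all 12 alveolar type 1 markers, 14 of 15 alveolar type 2 markers and 10 of 12 ciliated markers were called in lung, and none in spleen. Their median log2 fold changes were 9.25, 5.64, 7.56 and 4.55 in that order, beside -0.03 over all genes. Where a list below had no call in a direction, which held for 27 directions of the lists, neither an unadjusted p under 0.05 with a fold over 2 in edgeR nor DESeq2 added a gene (0 by each). Scgb3a2, a secretoglobin of club cells, stood at 1827, 2277 and 1777 CPM in the lungs and 0, 0 and 0 CPM in the spleens. Lungs were at least 3060.2-fold higher against a floor of 3 counts, since no spleen held a read (adjusted p = 2.76e-09). Scgb1a1, the main secreted protein of club cells, had 11150.2, 14922 and 15706 CPM in the lungs and 0.971, 0.461 and 1.08 CPM in the spleens (log2 fold change 13.93, standard error 0.42, adjusted p = 6.06e-10). Every lung was far above every spleen for both. Scgb3a1, another secretoglobin, reached 499, 861 and 509 CPM in the lungs and 0.194, 0 and 0 CPM in the spleens, which put lungs at least 973-fold higher. Bpifa1, an antimicrobial protein of the upper airway, gave 47.2, 94.5 and 253 CPM in the lungs and 0, 0 and 0 CPM in the spleens. Its 3 lungs were the least alike of these genes. Their mean was at least 205-fold higher than spleens with no reads, and a single lung can lie below that bound. Gm43085, for which no role is given here, was measured at 165, 178 and 151 CPM in the lungs and 0, 0 and 0 CPM in the spleens, at least 257-fold higher in lung.

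Surfactant proteins were near absent from spleen. Sftpc, a surfactant protein that is a hallmark of type 2 cells, gave 13286, 12106 and 11741 CPM in the lungs and 1.36, 0.692 and 4.10 CPM in the spleens (log2 fold change 12.51, standard error 0.49, adjusted p = 2.76e-09). For Sftpa1, a collectin of surfactant, the values were 8629, 7321 and 7188 CPM in the lungs and 0.777, 0 and 3.02 CPM in the spleens (log2 fold change 12.51, standard error 0.57, adjusted p = 7.07e-09). Groups did not overlap for either, although spleen library 9 held the most of both among spleens. Sftpb, whose promoter is shown above, had 960.4, 865 and 1285 CPM in the lungs and 0.194, 0.461 and 0.216 CPM in the spleens, at least 1619-fold higher in lung. Of the 17 tested genes of surfactant proteins and surfactant lipid synthesis, 13 were higher in lung and none in spleen, with a median of 2.19. Genes of lipid synthesis are used by many cells. Fasn, the fatty acid synthase, averaged 297 ± 21.8 CPM in the lungs and 36.8 ± 19.8 CPM in the spleens (SD, n = 3). Pcyt1a, an enzyme of phosphatidylcholine synthesis, was not called, at 21.7 ± 5.87 CPM in the lungs and 15.3 ± 4.29 CPM in the spleens, and neither were Ctsh, Csf2ra and Csf2rb. Csf2ra and Csf2rb encode the GM-CSF receptor that alveolar macrophages need to clear surfactant.

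Alveolar type 1 genes followed the same direction. Aqp5, the water channel of these cells, had 193, 177 and 196 CPM in the lungs and 0, 0 and 0 CPM in the spleens, at least 295-fold higher in lung. Emp2, a membrane protein of type 1 cells, gave 2839, 2558 and 2847 CPM in the lungs and 68.0, 64.6 and 67.7 CPM in the spleens (log2 fold change 5.33, standard error 0.21, adjusted p = 2.67e-09). Spleens held Emp2 at a level well above the floor, while Aqp5 had no read in any of them. Ager, the receptor for advanced glycation end products, averaged 918 ± 176 CPM in the lungs and 2.62 ± 0.529 CPM in the spleens (SD, n = 3), and Cldn18, a tight junction claudin, 832 ± 64.2 CPM in the lungs and 0.273 ± 0.238 CPM in the spleens. In the ciliated list Sec14l3 averaged 1291 ± 201 CPM in the lungs and 0.290 ± 0.149 CPM in the spleens and Foxj1, the regulator of motile cilia, 5.40 ± 1.73 CPM in the lungs and 0.0647 ± 0.112 CPM in the spleens. Mcidas and Tubb4b were the 2 ciliated genes not called, with log2 fold changes of 0.52 and 0.17.

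**Figure D2:**
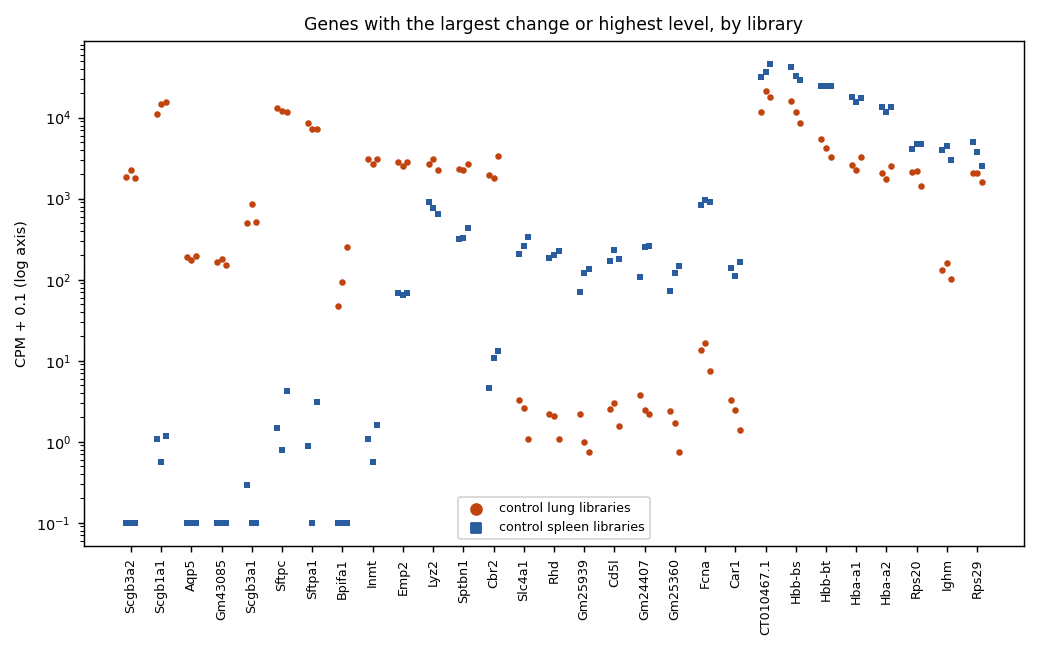
CPM plus 0.1 on a log axis in each of the 3 control lungs (circles) and 3 control spleens (squares), for the genes of largest change or highest level in each direction. Points at 0.1 are libraries with no reads, as in the 3 spleens for Scgb3a2, Aqp5 and Bpifa1.

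Among the most counted of the genes called in lung were also enzymes and cytoskeletal genes. Inmt, an amine methyltransferase, had 3094, 2678 and 3107 CPM in the lungs and 0.971, 0.461 and 1.51 CPM in the spleens (log2 fold change 11.48, standard error 0.34, adjusted p = 6.06e-10). Cbr2, a carbonyl reductase of club cells, reached 1944, 1791 and 3398 CPM in the lungs and 4.47, 10.8 and 13.2 CPM in the spleens (log2 fold change 7.94, standard error 0.42, adjusted p = 1.7e-08), with lung library 6 the highest. Lyz2, the lysozyme of macrophages and type 2 cells, was counted at 2711, 3052 and 2290.5 CPM in the lungs and 911, 766 and 649 CPM in the spleens (log2 fold change 1.76, standard error 0.22, adjusted p = 2.42e-05). Its spleens were not low, and the groups stayed apart. Sptbn1, a spectrin, had 2354, 2259.9 and 2690.1 CPM in the lungs and 319, 331 and 433 CPM in the spleens (log2 fold change 2.72, standard error 0.20, adjusted p = 2.55e-07). Xenobiotic and aldehyde enzymes as a list were higher in lung in 17 of 20 cases, with a median of 3.53. Cyp2f2, the club cell cytochrome, averaged 2016 ± 430.0 CPM in the lungs and 0.427 ± 0.0367 CPM in the spleens and Fmo2, a flavin monooxygenase, 511 ± 92.1 CPM in the lungs and 6.14 ± 3.62 CPM in the spleens (SD, n = 3). Cyp1b1, a cytochrome of mesenchymal cells, was the 1 member higher in spleen, with 3.31, 5.95 and 6.31 CPM in the lungs and 64.5, 39.7 and 36.7 CPM in the spleens (log2 fold change -3.21, standard error 0.29, adjusted p = 1.69e-06).

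Blood vessel genes were mostly higher in lung, with 1 member going the other way. Of 20 endothelial markers 19 were called in lung, with a median of 3.44. Car4, a carbonic anhydrase of lung capillaries, had 204, 194 and 243 CPM in the lungs and 0.194, 0 and 0 CPM in the spleens, at least 333-fold higher in lung. Lyve1, a hyaluronan receptor of lymphatic endothelium, gave 129.7, 128 and 175 CPM in the lungs and 0.388, 0.231 and 0.862 CPM in the spleens, while Stab2, a scavenger receptor of sinusoidal endothelium, gave 5.23, 6.49 and 4.53 CPM in the lungs and 142, 169 and 180.0 CPM in the spleens. These receptors were opposite, with log2 fold changes of 8.08 for Lyve1 and -4.95 for Stab2, and the organs overlapped in neither. Caveolae and vascular signalling had 19 of 22 genes higher in lung and none in spleen, with a median of 3.30. Ace, the angiotensin-converting enzyme, averaged 175 ± 8.50 CPM in the lungs and 1.70 ± 0.542 CPM in the spleens, and Bmpr2, the BMP receptor of pulmonary vessels, 800.0 ± 13.6 CPM in the lungs and 53.2 ± 2.78 CPM in the spleens (SD, n = 3). Cavin3, Agtr1a and Ptgs1 were not called.

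Fibroblast and matrix genes were mostly higher in lung. Of 18 fibroblast markers 17 were higher in lung, with a median of 1.93. Col14a1, a fibril-associated collagen, was the exception, with 49.7, 49.8 and 74.5 CPM in the lungs and 158, 163 and 171 CPM in the spleens (log2 fold change -1.54, standard error 0.17, adjusted p = 1.08e-05). Of 26 genes of basement membrane and elastic fibres 23 were higher in lung, with a median of 2.78. Mfap4, a microfibril protein, averaged 655 ± 144 CPM in the lungs and 3.57 ± 1.93 CPM in the spleens and Col4a4, a chain of alveolar basement membrane collagen, 238 ± 32.2 CPM in the lungs and 3.66 ± 0.870 CPM in the spleens (SD, n = 3). Emilin1, an elastic fibre protein, was higher in spleen at 5.58 ± 1.31 CPM in the lungs and 11.6 ± 1.10 CPM in the spleens, but not without lung library 4 or spleen library 7, which left 0 matrix genes called in spleen by edgeR and 0 at an unadjusted p under 0.05 with a fold over 2. Tight junction and adhesion genes were higher in lung in 18 of 19 cases, with a median of 4.13. Contractile genes were not called. Acta2, Myh11, Tagln, Des, Cnn1 and Actg2 were the 6 of 12 smooth muscle and pericyte markers not called, and Acta2, smooth muscle actin, had 44.3, 60.8 and 62.0 CPM in the lungs and 61.0, 57.7 and 52.0 CPM in the spleens (log2 fold change -0.07, standard error 0.16, adjusted p = 0.745). The 6 called were Pdgfrb, Cspg4, Notch3, Higd1b, Cox4i2 and Trpc6, of which several mark pericytes, and Higd1b averaged 239 ± 51.0 CPM in the lungs and 0.357 ± 0.251 CPM in the spleens.

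Transcription factors that pattern each organ were split by organ. Of 24 lung developmental factors 22 were higher in lung and none in spleen, with a median of 6.27. Nkx2-1, the master regulator of lung epithelium, had 20.7, 21.3 and 23.5 CPM in the lungs and 0.194, 0 and 0 CPM in the spleens, at least 34.1-fold higher in lung. Tbx4, a T-box factor of lung mesenchyme, reached 77.6, 81.0 and 106 CPM in the lungs and 0, 0 and 0.431 CPM in the spleens, at least 138-fold higher. Foxp1 and Sox9 were not called, with log2 fold changes of 0.30 and -0.41. Of 25 spleen and blood factors 22 were higher in spleen and none in lung, with a median of -2.68. Tlx1, without which the spleen does not form, gave 0.523, 0.541 and 0.324 CPM in the lungs and 33.2, 33.0 and 39.0 CPM in the spleens and Nkx2-3, which patterns its vessels and white pulp, 0.523, 0.361 and 0 CPM in the lungs and 35.0, 54.5 and 43.8 CPM in the spleens. Against a floor of 3 counts the spleen mean was 67.9-fold higher for Tlx1 and 85.9-fold higher for Nkx2-3. The lungs held 3, 3 and 2 counts of Tlx1 and 3, 2 and 0 of Nkx2-3, so these ratios are no strict bounds. Of 19 Hox genes tested, 8 were higher in lung, 4 in spleen and 7 were not called. Over all genes tested 21.5% were higher in lung and 20.3% in spleen, so the spleen count of Hox genes was near the general share. Hoxa5, needed for lung development, averaged 143 ± 19.9 CPM in the lungs and 12.8 ± 2.68 CPM in the spleens and Hoxb5 35.2 ± 2.05 CPM in the lungs and 1.46 ± 0.779 CPM in the spleens (SD, n = 3). The 4 higher in spleen, Hoxa9, Hoxb1, Hoxb9 and Hoxd4, all averaged under 2 CPM, and 1 or 2 of the list were called in spleen when lung library 4 or 6 or any of the 3 spleen libraries was left out, against 3 without lung library 5.

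**Figure D3:**
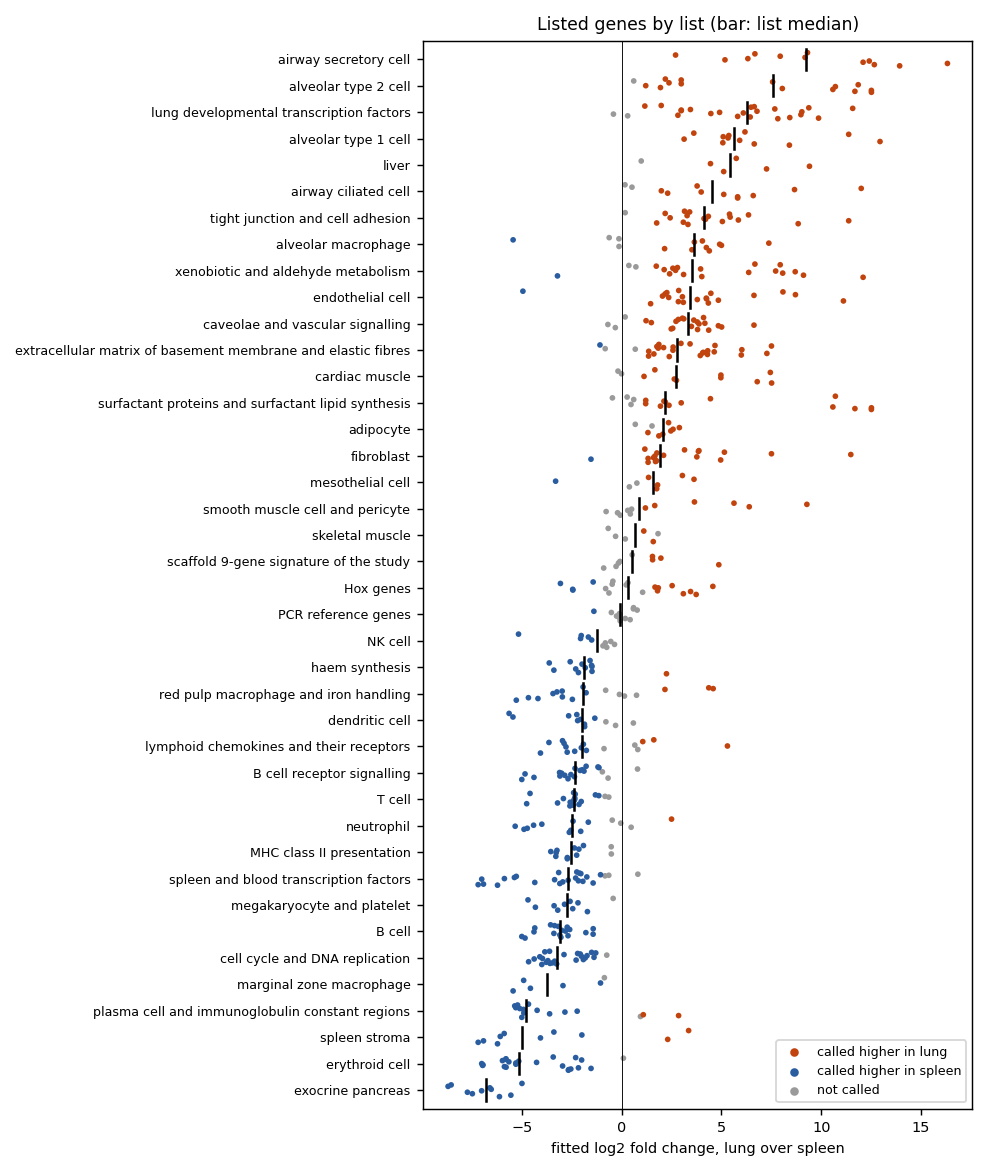
Fitted log2 fold change of lung over spleen for each listed gene tested, with 1 row a list, points colored by call and a bar at the list median. Medians ran from 9.25 for airway secretory markers to -6.81 for exocrine pancreas, a list that rests on spleen library 8.

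B cell genes were higher in spleen. All 18 B cell markers were called in spleen, with a median of -3.07, and so were 17 of 20 genes of B cell receptor signalling, with a median of -2.35. Ms4a1, the B cell surface protein CD20, had 56.1, 49.2 and 43.7 CPM in the lungs and 413, 352 and 437 CPM in the spleens (log2 fold change -3.04, standard error 0.18, adjusted p = 4.42e-08). Cr2, the complement receptor of B cells and follicular dendritic cells, gave 63.8, 59.7 and 57.8 CPM in the lungs and 527, 523 and 819 CPM in the spleens (log2 fold change -3.39, standard error 0.21, adjusted p = 6.21e-08). The organs were far apart in both. Of 16 tested plasma cell and immunoglobulin genes 13 were higher in spleen, with a median of -4.78. Ighm, the IgM heavy chain, reached 133, 159.6 and 101 CPM in the lungs and 3972, 4526 and 2966 CPM in the spleens (log2 fold change -4.90, standard error 0.28, adjusted p = 3.08e-08). Sdc1 and Prdm1 were higher in lung, and 1 gene of the list was called there without spleen library 8. Sdc1 marks plasma cells and is also found on epithelia, and it averaged 116 ± 6.33 CPM in the lungs and 15.7 ± 4.45 CPM in the spleens.

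T cell genes were also higher in spleen. Of 19 T cell markers 17 were higher in spleen, with a median of -2.39, and Lef1 and Tcf7 were not called. Cd3e, a chain of the T cell receptor complex, had 7.84, 7.21 and 12.6 CPM in the lungs and 39.0, 65.5 and 59.7 CPM in the spleens (log2 fold change -2.59, standard error 0.25, adjusted p = 2.64e-06). Among 10 tested NK cell genes 5 were higher in spleen and 5 were not called. Gzma, a granzyme, averaged 82.6 ± 21.2 CPM in the lungs and 104 ± 23.2 CPM in the spleens (SD, n = 3) and was not called. Antigen presentation by MHC class II was higher in spleen in 10 of 12 genes, with a median of -2.54. H2-Aa, a class II alpha chain, gave 275, 217 and 396 CPM in the lungs and 2326, 2224 and 1128 CPM in the spleens (log2 fold change -2.72, standard error 0.31, adjusted p = 1.18e-05). Ctss, the cathepsin that processes the invariant chain, and H2-DMb1 were not called. Dendritic cell markers were higher in spleen in 9 of 12 cases, and Clec9a, Zbtb46 and Itgae were not called.

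Most tested genes of the stroma and chemokines that organise white pulp were higher in spleen. Ccl19 and Ccl21a, chemokines of the T cell zone, had too few counts to be tested. Cxcl13, the chemokine that draws B cells into follicles, had 8.89, 11.9 and 9.06 CPM in the lungs and 187, 135 and 165 CPM in the spleens (log2 fold change -4.07, standard error 0.20, adjusted p = 1.11e-08). Madcam1, an addressin of the marginal sinus, averaged 0.357 ± 0.361 CPM in the lungs and 24.5 ± 5.78 CPM in the spleens and Coch, a secreted protein of follicular stroma, 9.94 ± 3.87 CPM in the lungs and 573 ± 42.4 CPM in the spleens (SD, n = 3). Of 10 tested spleen stroma genes 8 were higher in spleen and 2 in lung. Of these 2, Il33, an alarmin cytokine that type 2 cells also make, gave 63.8, 73.6 and 63.1 CPM in the lungs and 7.38, 6.00 and 5.61 CPM in the spleens (log2 fold change 3.36, standard error 0.19, adjusted p = 2.93e-08). Among 16 tested lymphoid chemokine genes 10 were higher in spleen and 3 in lung, namely Ccl20, Ltbr and Tnfsf13b. Tnfsf13b, the B cell survival factor BAFF, averaged 22.4 ± 2.31 CPM in the lungs and 7.17 ± 1.48 CPM in the spleens, and its receptor Tnfrsf13b was higher in spleen at 12.9 ± 1.90 CPM in the lungs and 98.1 ± 13.9 CPM in the spleens.

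Red cell genes filled the spleen side of the table. Of 23 tested erythroid markers 22 were higher in spleen and none in lung, with a median of -5.15. Slc4a1, the anion exchanger of the red cell membrane, had 3.14, 2.52 and 0.971 CPM in the lungs and 209.9, 264 and 339.6 CPM in the spleens (log2 fold change -6.96, standard error 0.33, adjusted p = 7.9e-09). Rhd, whose promoter is shown above, gave 2.09, 1.98 and 0.971 CPM in the lungs and 187, 199 and 225 CPM in the spleens (log2 fold change -6.95, standard error 0.25, adjusted p = 1.5e-09). Car1, a red cell carbonic anhydrase, was counted at 3.14, 2.34 and 1.29 CPM in the lungs and 138, 112 and 166 CPM in the spleens (log2 fold change -5.97, standard error 0.28, adjusted p = 7.64e-09). All lungs were far below all spleens for these. Globins, which circulating red cells and reticulocytes also carry, had smaller fold changes. The part of blood held in each organ was not tested. Hbb-bs had 16113, 11912 and 8683 CPM in the lungs and 42577, 32638 and 28919 CPM in the spleens (log2 fold change -1.53, standard error 0.32, adjusted p = 0.00140) and Hbb-bt 5385, 4281 and 3259 CPM in the lungs and 24271, 24923 and 24923 CPM in the spleens (log2 fold change -2.55, standard error 0.28, adjusted p = 8.4e-06). The alpha globins Hba-a1 and Hba-a2 had log2 fold changes of -2.67 and -2.65. Near-identical copies share reads, so counts of each globin are uncertain. Tmod1, a membrane skeleton protein, was the erythroid marker not called.

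Haem synthesis split at its entry step. Alas2, the erythroid form of the rate-limiting enzyme, had 6.62, 4.87 and 4.21 CPM in the lungs and 40.0, 14.8 and 13.4 CPM in the spleens (log2 fold change -2.16, standard error 0.42, adjusted p = 0.000869). Alas1, its housekeeping form, had 67.8, 73.8 and 119 CPM in the lungs and 18.3, 18.2 and 16.8 CPM in the spleens (log2 fold change 2.25, standard error 0.21, adjusted p = 2.25e-06). The forms were opposite, with no overlap between organs in either. The other 10 genes of the list were higher in spleen, and Fech, which inserts the iron, averaged 146 ± 22.3 CPM in the lungs and 564 ± 66.9 CPM in the spleens (SD, n = 3). Cell cycle and replication genes were higher in spleen in 24 of 25 cases, with a median of -3.26. Mki67, a marker of dividing cells, gave 25.6, 18.9 and 26.2 CPM in the lungs and 337, 349 and 423 CPM in the spleens (standard error of the log2 fold change 0.19, adjusted p = 9.1e-09). Mcm4, a helicase subunit, was not called. Platelet and megakaryocyte genes were higher in spleen in 9 of 10 cases, and Ppbp, a platelet chemokine, averaged 20.1 ± 3.85 CPM in the lungs and 180.1 ± 63.7 CPM in the spleens. Neutrophil genes were higher in spleen in 10 of 14, and S100a8, a calcium-binding protein of neutrophils, averaged 118 ± 13.2 CPM in the lungs and 711 ± 198 CPM in the spleens. Lcn2, which binds bacterial siderophores and is made by epithelia as well, was higher in lung at 41.7 ± 4.40 CPM in the lungs and 7.20 ± 2.03 CPM in the spleens.

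Macrophage genes divided by the niche of the cell. Of 13 alveolar macrophage markers 9 were higher in lung, with a median of 3.64. Chil3, a chitinase-like protein of these cells, had 102, 125 and 75.4 CPM in the lungs and 5.63, 6.23 and 2.16 CPM in the spleens (log2 fold change 4.39, standard error 0.31, adjusted p = 2.08e-07). Marco, a scavenger receptor found on alveolar and marginal zone macrophages, was higher in spleen, with 11.3, 14.2 and 3.72 CPM in the lungs and 473, 298 and 467 CPM in the spleens (log2 fold change -5.44, standard error 0.39, adjusted p = 2.32e-07). Pparg, Itgax and Mrc1 were not called. Marginal zone markers were higher in spleen in 5 of 6 cases, and Timd4, a receptor for dying cells, averaged 4.12 ± 1.53 CPM in the lungs and 121 ± 22.9 CPM in the spleens (SD, n = 3). Cd5l, a secreted protein of tissue macrophages, gave 2.44, 2.89 and 1.46 CPM in the lungs and 169.7, 235 and 179.8 CPM in the spleens (log2 fold change -6.46, standard error 0.26, adjusted p = 2.76e-09). Fcna, a ficolin, had 13.6, 16.2 and 7.28 CPM in the lungs and 825, 968 and 920.4 CPM in the spleens (log2 fold change -6.22, standard error 0.29, adjusted p = 8.27e-09). Both were well apart between organs.

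Iron recycling genes of red pulp macrophages were higher in spleen in 10 of 17 cases. Spic, the factor that specifies these cells, had 4.18, 2.16 and 1.78 CPM in the lungs and 124, 92.8 and 92.1 CPM in the spleens (log2 fold change -5.28, standard error 0.29, adjusted p = 2.1e-08). Hmox1, which opens the haem ring, gave 42.2, 36.6 and 37.7 CPM in the lungs and 436, 788 and 868 CPM in the spleens (log2 fold change -4.19, standard error 0.26, adjusted p = 5.68e-08), and Slc40a1, the iron exporter ferroportin, averaged 14.1 ± 1.46 CPM in the lungs and 352 ± 48.8 CPM in the spleens (SD, n = 3). Hp, haptoglobin, which binds free haemoglobin, was higher in lung at 669.9, 801 and 696 CPM in the lungs and 20.2, 37.8 and 30.6 CPM in the spleens (log2 fold change 4.59, standard error 0.24, adjusted p = 1.5e-08). Hpx, which binds free haem, and Hamp, the iron hormone hepcidin, were also called in lung, at 3.05 ± 2.82 CPM in the lungs and 0.643 ± 0.379 CPM in the spleens and 1.99 ± 2.25 CPM in the lungs and 0.0719 ± 0.124 CPM in the spleens, and both are made mainly by liver. Without lung library 5 the count of this list called in lung was 1. Trf, Fth1, Ftl1 and Blvra were not called.

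Small nuclear RNA genes were among those of largest change in spleen. Gm25939 had 2.09, 0.902 and 0.647 CPM in the lungs and 70.1, 123 and 137 CPM in the spleens (log2 fold change -6.51, standard error 0.37, adjusted p = 2.93e-08). Gm24407 gave 3.66, 2.34 and 2.10 CPM in the lungs and 108, 256 and 258 CPM in the spleens and Gm25360 2.27, 1.62 and 0.647 CPM in the lungs and 71.9, 122 and 147 CPM in the spleens, with log2 fold changes of -6.28 and -6.25. Spleen library 7 was the lowest spleen for all 3. Each belongs to a family of near-identical copies, so reads could not be assigned to 1 copy with certainty. Most RNAs of this class also lack a poly(A) tail, and how they came to be counted here was not tested. Among genes called in spleen without overlap, CT010467.1, for which no role is given here, had the highest spleen mean. It reached 11835, 21142 and 17927 CPM in the lungs and 31503, 36186 and 46391 CPM in the spleens (log2 fold change -1.20, standard error 0.30, adjusted p = 0.00463). Rps20 and Rps29, proteins of the small ribosomal subunit, had log2 fold changes of -1.24 and -1.02. Rps29 was not called without lung library 6 or without spleen library 7.

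Markers of neighbouring tissues were counted in some libraries. Pancreatic genes summed to 1.92, 2.16 and 1.94 CPM in the lungs and 13.0, 782 and 4.31 CPM in the spleens, so that spleen library 8 stood far above the other 5. All 10 tested were called in spleen, and 3 without spleen library 8. Liver genes summed to 10.8, 287 and 6.15 CPM in the lungs and 0.388, 1.62 and 8.19 CPM in the spleens, with lung library 5 far above the others, and 5 of 6 were called in lung but 1 without that library. Cardiac muscle genes were called in lung in 9 of 11 cases and summed to 115, 134 and 147 CPM in the lungs and 25.8, 26.1 and 33.0 CPM in the spleens. Myl7, the atrial myosin light chain, which pulmonary vein muscle also makes, averaged 34.8 ± 2.66 CPM in the lungs and 0.290 ± 0.149 CPM in the spleens (SD, n = 3). Adipocyte genes were called in lung in 7 of 9 cases and summed to 222, 598 and 432 CPM in the lungs and 130.3, 96.0 and 96.6 CPM in the spleens. Mesothelial genes were called in lung in 5 of 8 cases and summed to 215, 213 and 212 CPM in the lungs and 69.5, 80.1 and 77.8 CPM in the spleens. Wt1, a mesothelial factor that spleen development needs, was higher in spleen at 2.97 ± 0.462 CPM in the lungs and 28.9 ± 3.23 CPM in the spleens. Skeletal muscle genes were called in lung in 2 of 6 cases, and between 0 and 3 were when single libraries were left out, lung library 4 and each spleen library moving the count. Without lung library 4, 1 was called in spleen. The part of these tissues in other results was not tested.

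Some highly counted genes had log2 fold changes near 0. Hsp90aa1, Prrc2c, Ptp4a2, Myh9 and Tmsb4x had the smallest log2 fold changes among genes with a mean of at least 500 CPM. Myh9, nonmuscle myosin, had 617, 599.8 and 586 CPM in the lungs and 520.2, 582 and 632 CPM in the spleens (log2 fold change 0.03, standard error 0.16, adjusted p = 0.903). Tmsb4x, a thymosin that binds actin, had 3028, 3498 and 1624 CPM in the lungs and 4576, 2607 and 1045 CPM in the spleens (log2 fold change -0.05, standard error 0.44, adjusted p = 0.931), and its values within each organ spread widely. Of 12 common PCR reference genes 11 were not called, and Rplp0, a ribosomal protein, was higher in spleen at 184 ± 17.9 CPM in the lungs and 471 ± 41.3 CPM in the spleens (SD, n = 3). Without spleen library 7, 2 reference genes were called in lung. Actb averaged 5073 ± 220.4 CPM in the lungs and 5457 ± 982 CPM in the spleens and Hprt 47.0 ± 3.15 CPM in the lungs and 48.6 ± 8.76 CPM in the spleens. Gapdh has many near-identical pseudogene copies, so its counts are uncertain, and the part of these copies was not tested. Of the 9 genes of the scaffold signature that the study chose on samples of this series, Fhl1, Pja2, Slc1a3 and Soga1 were higher in lung and 5 were not called. Fhl1, a LIM protein of muscle, had 511, 508 and 475 CPM in the lungs and 16.1, 17.3 and 16.6 CPM in the spleens (log2 fold change 4.87, standard error 0.18, adjusted p = 1.63e-09). Without spleen library 9, 1 signature gene was called in spleen.

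The same contrast was then fitted in mice with tumors, over 24645 genes of all 24 libraries in a model with 8 groups. The 3 libraries labelled 4T07 lung held genes of both organs. Sftpc stood at 2855, 1798 and 3620.5 CPM in them, below 13286, 12106 and 11741 CPM in control lungs. Tlx1 stood at 14.6, 13.8 and 11.1 CPM in them, against 0.523, 0.541 and 0.324 CPM in control lungs and 16.7, 11.9 and 16.3 CPM in 4T07 spleens. Spic gave 30.3, 34.9 and 23.6 CPM, Coch 133, 133 and 106 CPM and the pancreatic trypsin Try4 45.1, 50.2 and 36.7 CPM in the libraries labelled 4T07 lung. All 3 were thus at spleen-like levels of the spleen factor Tlx1, which goes against a label of lung alone. The 4T07 spleens held Sftpc at 21.6, 16.7 and 9.74 CPM and Scgb1a1 at 47.4, 51.4 and 20.0 CPM, above control spleens at 0.971, 0.461 and 1.08 CPM. Other spleens held these genes at lower levels. Sftpc was at 5.86, 5.36 and 8.07 CPM in 67NR spleens and 3.36, 1.47 and 5.71 CPM in 4T1 spleens. Scgb1a1 was at 6.49, 9.20 and 10.1 CPM in 67NR spleens and 1.68, 3.43 and 9.60 CPM in 4T1 spleens. How the libraries labelled 4T07 lung came to hold genes of both organs was not tested. Since they are all of their group, no 4T07 value can be given without them.

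**Figure D4:**
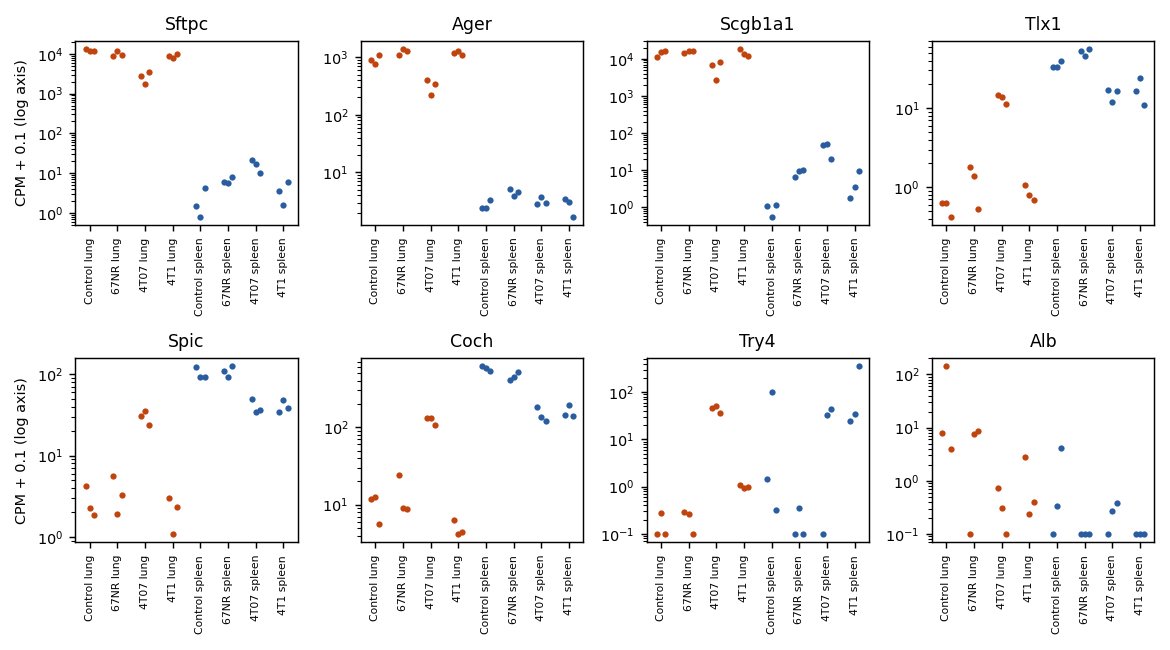
CPM plus 0.1 on log axes for 8 genes in each of the 24 lung (red) and spleen (blue) libraries by group. The spleen factor Tlx1 is at 11.1 to 14.6 CPM in the libraries labelled 4T07 lung and under 2 CPM in every other lung.

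Lung and spleen differed in 9263 genes (37.6%) in control mice when all 24 libraries were fitted together. In the same model they differed in 10175 genes (41.3%) in 67NR mice, in 2905 (11.8%) in 4T07 mice and in 10089 (40.9%) in 4T1 mice. Of the 8411 control calls, 6903 (82.1%) were called the same way in 67NR mice, 5994 (71.3%) in 4T1 mice and 2292 (27.3%) in 4T07 mice, while 4, 49 and 37 were called the opposite way. The difference of the contrast from that of control mice was tested for each cell line against the same control libraries, so the 3 tests share them. It was called for 18 genes (0.073%) in 67NR, 3277 (13.3%) in 4T1 and 4631 (18.8%) in 4T07 mice. The 67NR count depended on the tool and the filter, at 226 by DESeq2 and 132 with at least 10 counts in every library. In 67NR mice the count was 0 without lung library 4 or spleen library 8, where 1115 and 1104 genes had an unadjusted p under 0.05 with a difference over 1 on the log2 scale, and 265 without spleen library 9. The count in 67NR was 9 without lung library 5 and 85 without lung library 6.

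Marker lists are described by their medians. Median log2 fold changes of B cell markers were -3.04 in 67NR, -2.04 in 4T1 and -0.55 in 4T07 mice, beside -3.07 in control mice. Those of alveolar type 2 markers were 7.63, 8.11 and 5.69, beside 7.56. Alveolar macrophage markers had medians of 3.57 in 67NR, 0.45 in 4T1 and 0.17 in 4T07 mice, beside 3.64 in control mice. Neutrophil markers moved in the same mice. Their summed level was 288 to 350 CPM in control lungs, 11972 to 28558 CPM in 4T1 lungs and 25248 to 30567 CPM in libraries labelled 4T07 lung. In spleens it was 1015 to 1780 CPM in control, 13669 to 35687 CPM in 4T1 and 27494 to 33417 CPM in 4T07 mice. The ratio of lung to spleen differed from control for 9 of the 14 neutrophil markers in 4T1 and 12 in 4T07 mice. Over all genes it differed for 13.3% in 4T1 and 18.8% in 4T07 mice. The part of neutrophil markers in the medians above was not tested. The 4T07 medians lay nearer to 0 than the control ones for these lists. All 4T07 values here rest on the 3 libraries labelled lung that held spleen genes, and the part of this was not tested. In 4T1 mice Chil1, a chitinase-like protein, averaged 700.5 ± 74.3 CPM in control lungs, 2.57 ± 0.376 CPM in control spleens, 729.5 ± 87.5 CPM in 4T1 lungs and 87.0 ± 26.6 CPM in 4T1 spleens (difference -5.27, standard error 0.41, adjusted p = 5.45e-09). The lung means lay within an SD of each other, and the 4T1 spleens had the higher spleen mean. Lipg, an endothelial lipase, averaged 17.4 ± 4.45 CPM in control lungs, 0.350 ± 0.106 CPM in control spleens, 24.0 ± 5.33 CPM in 4T1 lungs and 25.0 ± 14.1 CPM in 4T1 spleens (difference -5.84, standard error 0.64, adjusted p = 1.4e-06). Its control spleen mean lay below the floor of 3 counts, so this fitted size is no bound.

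**Figure D5:**
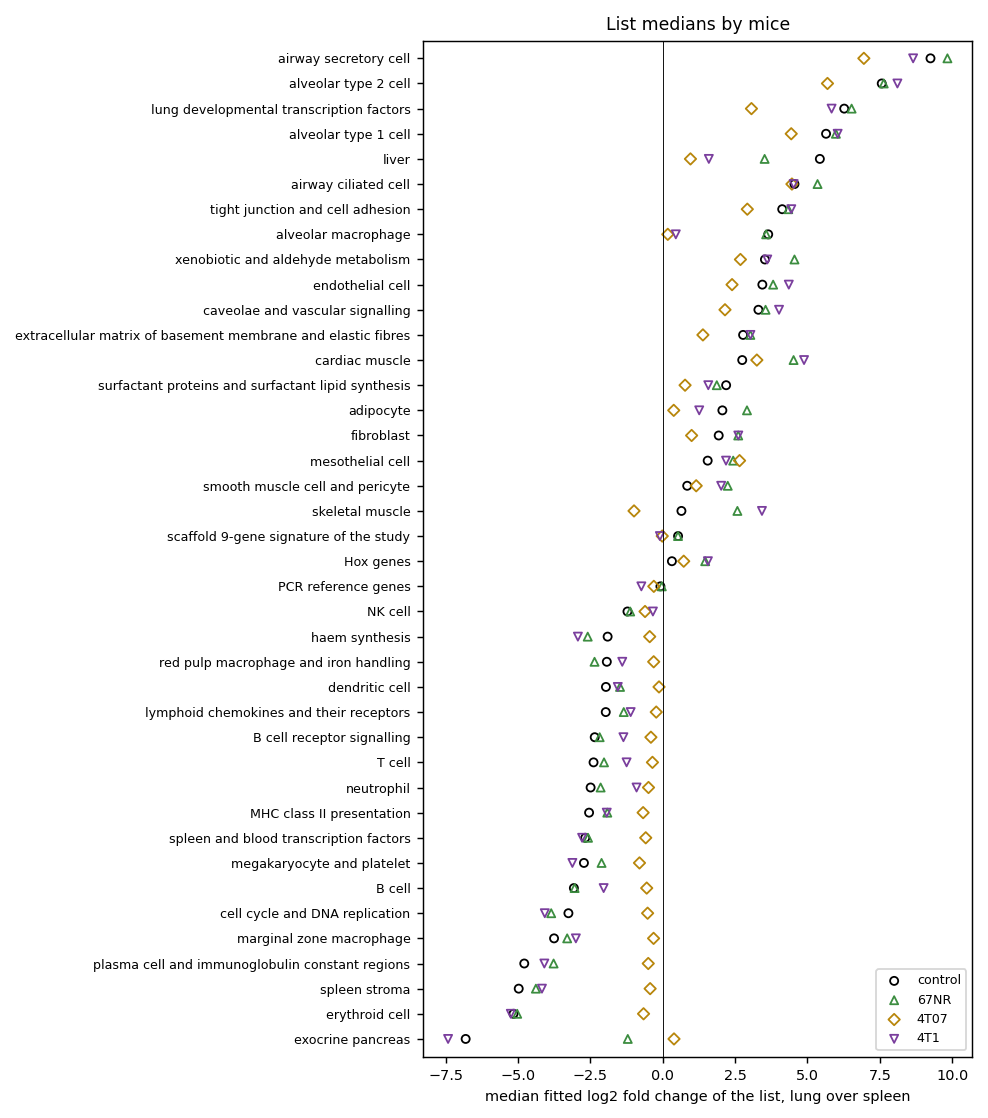
Median fitted log2 fold change of lung over spleen for each list in control, 67NR, 4T07 and 4T1 mice. The 4T07 medians of B cell and alveolar type 2 markers, -0.55 and 5.69, lie nearer to 0 than those of control mice, -3.07 and 7.56. The 4T07 medians rest on libraries labelled lung that held spleen genes.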

How the data were processed

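The authors deposited raw counts per gene for 45 libraries made with a QuantSeq 3′ kit with a UMI add-on. The submitters' processing notes name Trim Galore 0.5.0, STAR 2.6.0 and featureCounts; the build, the annotation, the strand setting and the use of UMIs are not given in the sources used here. Counts of 24 lung and spleen libraries were read, 21 columns were not used, and lines with the same symbol were summed (55487 lines to 55367 symbols). The 3 control lungs and 3 control spleens were compared with edgeR 4.0.16 (R 4.3.3; quasi-likelihood test, TMM factors) over genes with more than 10 counts, and called at a Benjamini-Hochberg adjusted p under 0.10 with a fold change over 2. Differences between mice were tested as interactions in a model of all 24 libraries. DESeq2 1.42.0, other scalings, other filters and leaving out each library were alternatives. On simulated data with the sizes of the control comparison (19630 genes), edgeR recovered 97% of planted log2 changes of 1.5 and 97% of those of 2, and 5.37% of its calls were unchanged genes. For the 4T1 interaction (24200 genes) it recovered 75% and 92%, and 10.2% of its calls were unchanged genes. Each simulation changed 100 genes at each size, all above a minimum mean count, and kept every other gene at the same mean in all groups. The real control comparison called 41.9% of its genes, many of them near 0 in 1 organ, so these rates may not carry over to it. Levels are CPM of library totals, as the 3 libraries or mean ± SD. Bounds set a group with no library over 3 counts at 3 counts and set the mean of the other group against that floor. Where a library held 3 counts, the value is a ratio to the floor and no strict bound. The study gives 3 mice for each condition in these tissues, but the labels do not number the mice, so p-values measure the spread between these samples. An exact permutation test of 3 against 3 cannot go below 0.1.

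Genes were named as the 8 largest changes in each direction with a mean of at least 50 CPM and no overlap, the 8 highest levels in each direction, members of 40 lists, the 3 largest differences in each direction for each kind of tumor, with a mean of at least 5 CPM, and the 5 smallest changes at 500 CPM or more. Members and lists were chosen with earlier results of these data known, and some listed genes are counted but not reported here by name. Promoters and RNA classes came from RefSeq tables matched by symbol; figures used matplotlib.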

Additional observations from a re-analysis of the deposited data

Results flagged for a closer look

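The ratio of lung to spleen differed from that of control mice, by the test of the difference itself in edgeR's model of 24 libraries, for 18 genes in 67NR, 4631 in 4T07 and 3277 in 4T1 mice. The 67NR count was 226 by DESeq2, 132 with at least 10 counts in every library, and 0 to 265 when single control libraries were left out. The 4T07 values rest on 3 libraries labelled lung that held spleen genes.

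In 67NR mice the named genes were Asprv1, a skin protease, with difference 5.29, standard error 1.11, adjusted p = 0.0779, Ada, adenosine deaminase, with difference 3.79, standard error 0.69, adjusted p = 0.0340, and Gm26132 with difference 2.06, standard error 0.41, adjusted p = 0.0615, whose ratios were higher than in control mice. Lower ratios were found for Gm49159 (difference -2.53, standard error 0.47, adjusted p = 0.0340), Ckap2l, a spindle protein (difference -1.81, standard error 0.34, adjusted p = 0.0340), and Myh10, a nonmuscle myosin (difference -1.21, standard error 0.22, adjusted p = 0.0340). Ada averaged 1.52 ± 0.884 CPM in control lungs, 12.1 ± 0.812 CPM in control spleens, 19.6 ± 16.2 CPM in 67NR lungs and 11.5 ± 0.816 CPM in 67NR spleens, so its 67NR lungs spread nearly as widely as their mean. The control lung mean of Asprv1 lay below the floor of 3 counts, so its fitted size is no bound. All 6 genes lost their call without lung library 4 and without spleen library 8.

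In 4T07 mice the ratio was higher for Gm22317 (difference 9.46, standard error 2.03, adjusted p = 0.00109) and for the pancreatic trypsins Try4 (difference 9.22, standard error 2.47, adjusted p = 0.00742) and Try5 (difference 9.09, standard error 2.58, adjusted p = 0.0122), near-identical copies whose calls were lost without spleen library 8. It was lower for Irx1, an Iroquois factor of lung (difference -11.13, standard error 0.90, adjusted p = 1.24e-09), Scgb3a2 (difference -9.39, standard error 1.43, adjusted p = 1.99e-05) and Aqp5 (difference -8.44, standard error 1.04, adjusted p = 1.44e-06). Irx1 averaged 73.1 ± 9.31 CPM in control lungs, 0 ± 0 CPM in control spleens, 15.9 ± 4.20 CPM in 4T07 lungs and 9.78 ± 6.31 CPM in 4T07 spleens. For all 6 a control organ was at or near 0, so these fitted sizes are no bounds, and the same holds for Scgb3a2 in 4T1 mice.

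In 4T1 mice the ratio was higher for Gm43507 (difference 6.12, standard error 1.60, adjusted p = 0.0107), Gria1, a glutamate receptor (difference 6.04, standard error 1.39, adjusted p = 0.00427), and Slc6a2, the noradrenaline transporter (difference 5.63, standard error 1.83, adjusted p = 0.0383), all 3 with no reads in any 4T1 spleen, so these fitted sizes are no bounds. It was lower for Scgb3a2 (difference -6.12, standard error 2.13, adjusted p = 0.0539), Lipg (difference -5.84, standard error 0.64, adjusted p = 1.4e-06) and Chil1 (difference -5.27, standard error 0.41, adjusted p = 5.45e-09). The control spleen mean of Lipg lay below the floor of 3 counts, so its fitted size is no bound either. The call of Slc6a2 was lost without spleen library 8 and that of Scgb3a2 without spleen library 9.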

How the results depend on the processing

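No call of the control comparison was called the opposite way under any alternative run. Requiring at least 10 counts in every library, which leaves 11716 genes and drops those near 0 in 1 organ, lowered the calls to 3701 (1825 lung, 1876 spleen), and the called differences to 2365 in 4T07 and 2030 in 4T1 mice, and raised those in 67NR mice to 132. DESeq2 called 226 differences in 67NR mice, and leaving out single libraries gave 0 to 265. Upper-quartile factors and no count filter moved the median of all genes to -0.18 and -0.17. Signs reversed in 5 genes with changes near 0, none called: with upper-quartile factors Prrc2c (-0.13), Ptp4a2 (-0.13) and Myh9 (-0.12); for Hsp90aa1 with library totals only (0.018), no count filter (0.0052) and all 24 libraries (0.026); and leaving out single libraries Hsp90aa1 (-0.16 to 0.22), Prrc2c (-0.12 to 0.18), Ptp4a2 (-0.0972 to 0.072), Myh9 (-0.0398 to 0.072) and Tmsb4x (-0.46 to 0.55). The cause was not tested. Testing against a fold of 2 (glmTreat) kept 6060 calls and dropped CT010467.1, Rps20 and Rps29. No paired analysis was possible because the labels share no library number between groups and do not link the organs of a mouse.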

Other observations

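Classes of RNA differed in how often they were called. Of the genes tested, 17437 (86.8%) matched a RefSeq symbol. Among 102 small nuclear RNA genes 76 (74.5%) were higher in spleen and 0 in lung by edgeR (0 at an unadjusted p under 0.05 and 0 by DESeq2), with a median log2 fold change of -3.64. Among 96 small nucleolar RNA genes 63 (65.6%) were higher in spleen and 2 in lung, with a median of -2.17. Of 14863 protein-coding genes 2561 (17.2%) were higher in spleen and 3503 in lung. Long noncoding RNA genes were higher in spleen in 426 of 1393 cases (30.6%) and pseudogenes in 242 of 776 (31.2%). Summed over the tested small nuclear RNA genes, lungs held 97.1, 95.9 and 117.5 CPM and spleens 828, 1960.3 and 2670 CPM, so that every spleen was above every lung and spleens differed among themselves. These classes were chosen after their values were seen, most of these RNAs lack a poly(A) tail, and their copies share reads, so no test is given.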
